A study of Homo sapiens with 4 samples.

Results

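HOX genes encode homeodomain transcription factors that give cells of the embryo their position along the body axis, and many stay active in adult tissues and in cancer cells. In humans they lie in 4 clusters, HOXA to HOXD, and genes of the same number in different clusters (paralogues) are closely related. Low-numbered genes act towards the head and high-numbered genes towards the tail, limb ends and urogenital tract, in the order in which the genes lie along the chromosome. The clusters are textbook targets of Polycomb complexes, which silence chromatin by methylating histone H3 at lysine 27. SWI/SNF remodellers oppose Polycomb, and H3K27ac, the acetylated form of the same lysine, marks active promoters and enhancers.

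The 38 listed HOX genes were taken by name, out of 19821 protein-coding genes. HOXA held 10 of them on chromosome 7, HOXB 10 on chromosome 17, HOXC 9 on chromosome 12 and HOXD 9 on chromosome 2. SK-Hep1, a human hepatic adenocarcinoma line, was profiled by ChIP-seq for H3K27ac with a control shRNA (shCon) and with an shRNA against SMARCB1 (shSMARCB1), and for SMARCB1, a core SWI/SNF subunit. For the SMARCB1 library the labels state no shRNA. Infected cells carrying an shRNA were selected with puromycin, and the labels do not say how many shRNA sequences or clones were used or how far SMARCB1 was depleted. Each of the 3 groups had 1 library, so no value below has a replicate error and the libraries are described without a test.

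The H3K27ac libraries held 13235203 tags in shCon and 10203310 in shSMARCB1, a ratio of 1.3. Over the whole genome, the summed peak length was 79.5 Mb for shCon and 70.9 Mb for shSMARCB1, a ratio of 0.892. Of the hepatocyte genes ALB, APOA1, HNF4A, SERPINA1 and TTR, only SERPINA1 carried any H3K27ac over its record (480 bp in shCon, 334 bp in shSMARCB1). The mesenchymal genes VIM, COL1A1, FN1 and TWIST1 carried it in both libraries and COL1A2 in shCon only. Of the endothelial genes, CDH5 and VWF carried it in both, PECAM1 in shSMARCB1 only, with 900 bp, and KDR in neither. Of the epithelial genes, CDH1 carried it in both and EPCAM in shCon only, with 115 bp.

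Some sequences of the clusters are given first, since the peaks are described around them. The clusters also hold microRNA genes of the miR-10, miR-196 and miR-615 families, and miR-196 is known for repressing HOX transcripts. The mature 5p strands of miR-196a, miR-196b, miR-10a and miR-615 (RefSeq, GRCh38.p14) are written 5' to 3', with the seed, bases 2 to 8, in capitals:
hsa-miR-196a-5p: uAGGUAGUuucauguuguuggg
hsa-miR-196b-5p: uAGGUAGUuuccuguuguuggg
hsa-miR-10a-5p: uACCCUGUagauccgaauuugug
hsa-miR-615-5p: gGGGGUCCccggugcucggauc
The miR-196 strands come from 3 clusters (MIR196A1 in HOXB, MIR196A2 in HOXC and MIR196B in HOXA) and share the seed AGGUAGU. MIR10A lies in HOXB, MIR10B in HOXD and MIR615 in HOXC.

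The 250 bases upstream of a start site are given for 4 starts at which the libraries bear on the promoter, read 5' to 3' on the strand of the gene, with each CG pair in capitals. HOXA3 at chr7:27150951-27151200 (minus strand) lies wholly under a SMARCB1 peak, HOXA11 at chr7:27185233-27185482 (minus) was under H3K27ac in shCon only, HOXA13 at chr7:27200092-27200341 (minus) was under it in both libraries, and HOXD13 at chr2:176092471-176092720 (plus) lies next to a peak of shSMARCB1 only:
HOXA3 upstream: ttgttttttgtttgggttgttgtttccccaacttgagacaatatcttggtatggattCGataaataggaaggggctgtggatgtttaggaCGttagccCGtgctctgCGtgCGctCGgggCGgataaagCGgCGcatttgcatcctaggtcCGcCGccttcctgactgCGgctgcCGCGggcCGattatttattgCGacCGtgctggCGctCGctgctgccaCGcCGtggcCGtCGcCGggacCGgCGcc
HOXA11 upstream: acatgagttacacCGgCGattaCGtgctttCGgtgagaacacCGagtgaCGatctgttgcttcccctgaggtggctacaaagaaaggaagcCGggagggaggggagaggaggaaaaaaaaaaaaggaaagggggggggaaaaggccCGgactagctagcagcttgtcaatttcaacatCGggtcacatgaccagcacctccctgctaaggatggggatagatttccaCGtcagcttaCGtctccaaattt
HOXA13 upstream: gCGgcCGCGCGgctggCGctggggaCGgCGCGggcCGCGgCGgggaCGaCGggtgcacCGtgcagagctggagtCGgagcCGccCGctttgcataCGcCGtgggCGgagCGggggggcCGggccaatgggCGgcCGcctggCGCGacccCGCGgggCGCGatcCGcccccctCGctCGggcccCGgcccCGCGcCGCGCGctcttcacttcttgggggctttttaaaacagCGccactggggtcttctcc
HOXD13 upstream: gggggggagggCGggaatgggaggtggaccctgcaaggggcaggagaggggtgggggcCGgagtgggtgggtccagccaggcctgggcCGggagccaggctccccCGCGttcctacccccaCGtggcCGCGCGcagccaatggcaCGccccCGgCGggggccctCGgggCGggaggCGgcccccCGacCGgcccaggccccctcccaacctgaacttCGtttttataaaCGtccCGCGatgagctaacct
These windows hold 26, 11, 40 and 21 CG pairs, against a median of 11 over 34961 promoter windows of the same length. The median over the 27 HOX windows was 19, and the 40 at HOXA13 was the highest of them.

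The first question was which HOX genes were acetylated. A gene was counted as marked when its record, from first to last annotated base, shared at least 1 base with an H3K27ac peak. In shCon 21 of 38 HOX genes were marked (55.3%), and over all protein-coding genes the share was 69.7%. HOX records are short, with a median of 3786 bp against 24482 bp, and among the genes whose length lay within the HOX range of 1677 to 45574 bp the share was 66.3%. That range runs up to the HOXA3 record, far past the HOX median. Here and below, it therefore does not match genes on length. In shSMARCB1 22 of 38 were marked (57.9%), against 68.5% of all genes. Marked in both libraries were 21, in shSMARCB1 only 1, in shCon only 0, and in neither 16. Over all genes the shCon-only share was 2.27% and the shSMARCB1-only share 1.03%. The 1 HOX gene of the latter kind, HOXD13, is 2.63% of 38, and a single gene is too few to set it apart from that background.

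**Figure D1:**
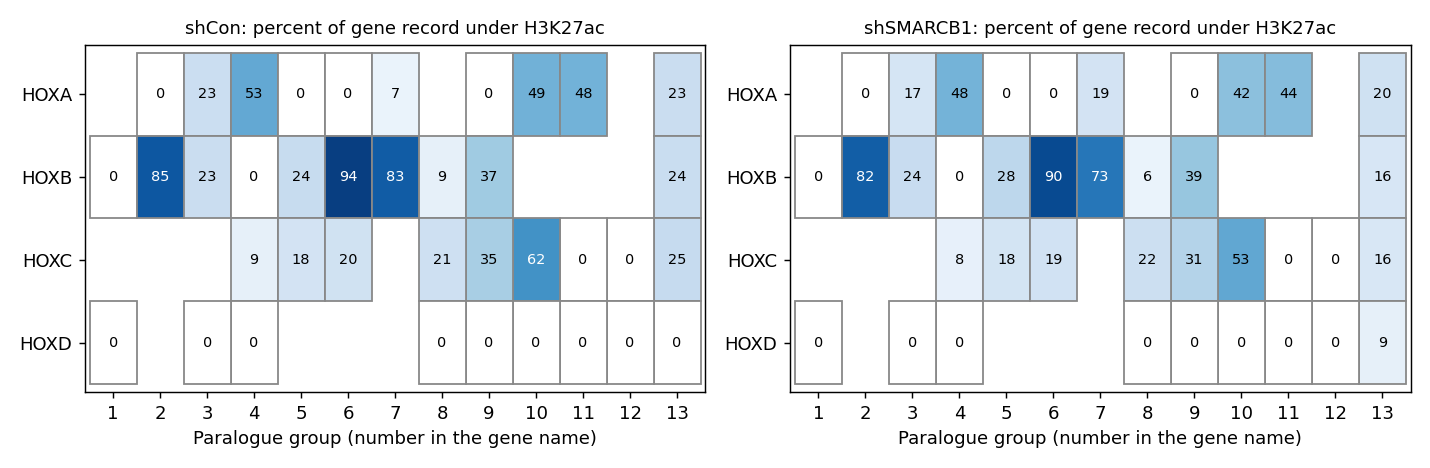
Percent of each HOX gene record under H3K27ac peaks, by cluster (rows) and paralogue group (columns), for the shCon library (left) and the shSMARCB1 library (right); only listed genes are boxed, and darker blue is a higher percent. HOXB6 has the highest value in both libraries, and the HOXD row is at 0 except for HOXD13 in shSMARCB1.

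The 4 clusters differed in how much of their length was acetylated. Each cluster was read from 20 kb before its first to 20 kb after its last listed gene. HOXB had 51572 bp under shCon peaks and 47922 bp under shSMARCB1 peaks, or 21.5% and 19.9% of its window. HOXA had 21965 and 18807 bp (15.7% and 13.5%), and HOXC had 16266 and 14137 bp (10.3% and 8.99%). HOXD had 2318 and 3177 bp (1.62% and 2.22%). The order of the clusters was therefore the same in both libraries, and HOXD was the only one with more acetylated length in shSMARCB1. For HOXD, shCon minus shSMARCB1 was -859 bp, and -756 bp of this came from 1 peak at HOXD13.

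**Figure D2:**
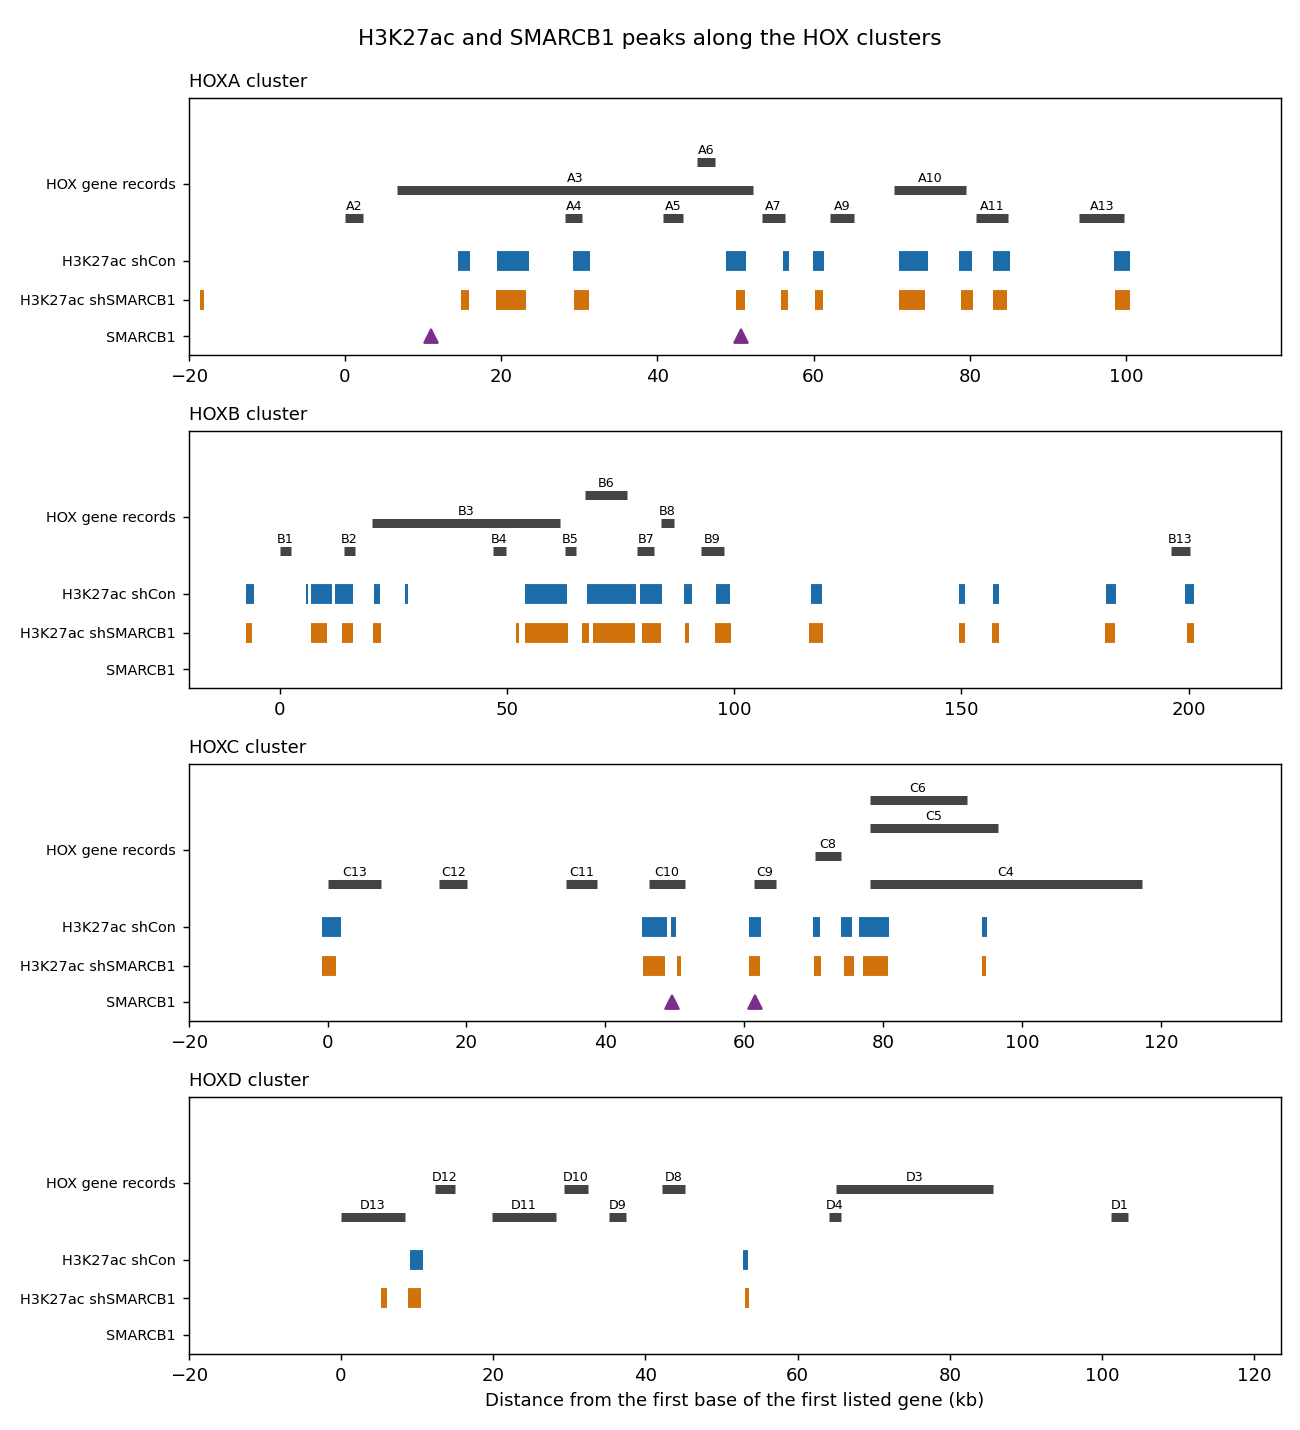
HOX gene records (grey bars, labelled by cluster letter and number), shCon H3K27ac peaks (blue), shSMARCB1 H3K27ac peaks (orange) and SMARCB1 peaks (purple triangles at the peak centre) along the 4 cluster windows, with distance in kb from the first base of the first listed gene. Most blue blocks have an orange block below them, and HOXD holds 2 shCon and 3 shSMARCB1 peaks.

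HOXD was nearly free of H3K27ac. Its genes pattern the trunk and the limb, and HOXD13 is best known for its part in forming digits. HOXD1, HOXD3, HOXD4, HOXD8, HOXD9, HOXD10, HOXD11 and HOXD12 had 0 bp in both libraries. From chr2:176141144 to the end of the window, 69.8 kb with HOXD4, HOXD3 and HOXD1 held no peak of either library, and a stretch of 42.0 kb with HOXD12 to HOXD8 held none either. The shCon peaks, of 1651 and 667 bp, lay between HOXD13 and HOXD12 and between HOXD8 and HOXD4. shSMARCB1 peaks of 1794 and 627 bp overlapped them.

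HOXD13 had 0 bp in shCon and 756 bp in shSMARCB1, from a peak at chr2:176092773-176093528 that began 52 bp after the start site. This peak held 756 of the 3177 acetylated bases of the HOXD window in shSMARCB1. The call turned on the window: with 1 kb added to each side of the record, HOXD13 was marked in both libraries, with 327 bp in shCon and 1455 bp in shSMARCB1. With the wider 50% of each peak list it was marked in neither library.

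In HOXA, acetylated and unacetylated genes were interspersed. HOXA4, HOXA7, HOXA10, HOXA11 and HOXA13 were marked in both libraries, and HOXA2, HOXA5, HOXA6 and HOXA9 in neither. HOXA2, which patterns the second pharyngeal arch, lay in a stretch of 32.5 kb without a peak of either library. HOXA9, a driver gene of acute myeloid leukaemia, had its nearest shCon peak 799 bp and its nearest shSMARCB1 peak 941 bp outside its record, in the interval towards HOXA7, and with 1 kb added to each side of the record it had 202 and 60 bp. HOXA10, needed with HOXA11 for the uterus, had 4500 bp in shCon and 3887 bp in shSMARCB1. HOXA11 had 1962 and 1776 bp, and HOXA4 had 1177 and 1065 bp. At the HOXA11 start site the shCon peak reached past the start and covered all 250 upstream bases printed above, while the shSMARCB1 peak ended 121 bp short of the start and covered 0 of them.

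HOXA3, which is needed for the thymus and parathyroid, had 10310 bp in shCon and 7913 bp in shSMARCB1. Its record is 45574 bp long and contains HOXA4, HOXA5 and HOXA6, so part of this length lies at HOXA4. The RefSeq promoter table gives 7 start sites for HOXA3. Its outermost start, at 27152583, was 880 bp from shCon and 1036 bp from shSMARCB1 acetylation, so a limit of 1 kb falls between these distances. HOXA7 was the HOX gene with the largest ratio in favour of shSMARCB1, with 194 bp in shCon and 553 bp in shSMARCB1, 2.85-fold. That ratio rests on where a narrow peak ended. With 1 kb added to each side, or counted within 1 kb of its start, HOXA7 had 650 and 937 bp, below the 1.5-fold limit, and with an overlap of at least 200 bp it was marked in shSMARCB1 only.

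HOXB held the widest acetylated regions of the 4 clusters. HOXB6 was covered over 94.3% of its record in shCon and 90.0% in shSMARCB1, with 8713 and 8313 bp. HOXB2, a hindbrain gene, was covered over 85.1% and 82.4%, with 2088 and 2022 bp. HOXB7 had 3150 and 2761 bp, or 83.2% and 72.9%. HOXB3 had the most acetylated bases of the cluster, 9605 in shCon and 9870 in shSMARCB1, over a record that also contains HOXB4. HOXB4 itself, known for expanding blood stem cells, had 0 bp in both libraries, and so had HOXB1, a hindbrain gene at the edge of the cluster.

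From the upstream part of HOXB3 to the edge of HOXB8, 3 neighbouring acetylated regions spanned 30.1 kb at chr17:48582498-48612609. They were covered over 82.3% in shCon and 80.7% in shSMARCB1 and held 48.1% and 50.7% of all acetylated bases of the HOXB window. The wider of the shCon peaks here, 10670 bp at HOXB6 and 9376 bp at HOXB3 and HOXB5, lay at percentiles 98.6 and 98.1 of all acetylated shCon regions by length. In shSMARCB1 the same regions had 10587 and 9433 bp. HOXB5 had 617 bp in shCon and 707 bp in shSMARCB1, and HOXB9 had 1914 and 2040 bp. HOXB8 was touched by the edge of the HOXB7 region, with 264 and 191 bp, and with an overlap of at least 200 bp it was marked in shCon only. HOXB13, a gene of the prostate lineage that stands far from the other HOXB genes, had 939 bp in shCon and 653 bp in shSMARCB1.

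In HOXC, the genes HOXC4, HOXC5, HOXC6, HOXC8, HOXC9, HOXC10 and HOXC13 were marked in both libraries, and HOXC11 and HOXC12 in neither. HOXC11 and HOXC12 lay together in 43.3 kb without a peak of either library. HOXC10 led the cluster by share of its record, with 3191 bp (62.2%) in shCon and 2710 bp (52.8%) in shSMARCB1. HOXC4, HOXC5 and HOXC6 share their first annotated base and therefore 1 acetylated region there, of 4228 bp in shCon and 3705 bp in shSMARCB1. They are not separate observations. HOXC4 and HOXC5 each had 3400 and 3322 bp, and HOXC6 had 2726 and 2694 bp. HOXC9 had 1101 bp in shCon and 975 bp in shSMARCB1, and HOXC8 had 786 and 828 bp. HOXC13, which is required for hair and nail keratins, had 1930 bp in shCon and 1232 bp in shSMARCB1, 1.57-fold less. It was the only HOX gene below the 1.5-fold limit in shSMARCB1, and with 1 kb added to each side its values of 2689 and 2047 bp no longer passed it.

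Sorted by paralogue number, no listed gene of group 1 (HOXB1 and HOXD1) or group 12 (HOXC12 and HOXD12) was marked in either library. In group 7, HOXA7 and HOXB7 were both marked in both. Group 13 was the only other group without an unmarked gene in shSMARCB1. HOXA13, a limb and urogenital gene, had 1337 bp in shCon and 1169 bp in shSMARCB1. With HOXB13 and HOXC13, all 3 group 13 genes marked in both had less acetylated length in shSMARCB1, at 0.874, 0.695 and 0.638 of shCon, and HOXD13 was marked in shSMARCB1 only. The whole acetylated regions at HOXA13, HOXB13 and HOXC13, of which the records cover only part, had ratios of 0.928, 0.86 and 0.761. Over all genes marked in both, 70.3% had less, and in groups 2, 4, 6, 10 and 11 the 1 or 2 genes marked in both also all had less, so the direction does not set group 13 apart. By position in the clusters, 3 of 7 genes of groups 1 to 3 were marked in shCon, 10 of 15 of groups 4 to 8 and 8 of 16 of groups 9 to 13. These shares of 42.9%, 66.7% and 50.0% stand beside 69.7% of all protein-coding genes and 66.3% of genes in the HOX length range. The latter genes are not matched on length. The 10 include HOXC4, HOXC5 and HOXC6, which share 1 acetylated region at their first base, so they are not separate observations.

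The second question was how far acetylated length at these genes differed between the libraries. Of the 21 HOX genes marked in both, 16 had fewer acetylated bases in shSMARCB1 and 5 had more. The median ratio of shSMARCB1 to shCon was 0.905, and over the 13372 protein-coding genes marked in both it was also 0.905. Fewer bases in shSMARCB1 were found for 76.2% of these HOX genes and for 70.3% of all such genes. Past 1.5-fold, 1 HOX gene was lower (4.76%, against 12.5% of all genes) and 1 was higher (4.76%, against 3.34%). The median ratio of the HOX genes was thus that of all genes. The shCon library was the deeper one and had the longer fragment length, 190 against 158 in shSMARCB1. The part of depth or fragment length in the shorter shSMARCB1 lengths was not tested.

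**Figure D3:**
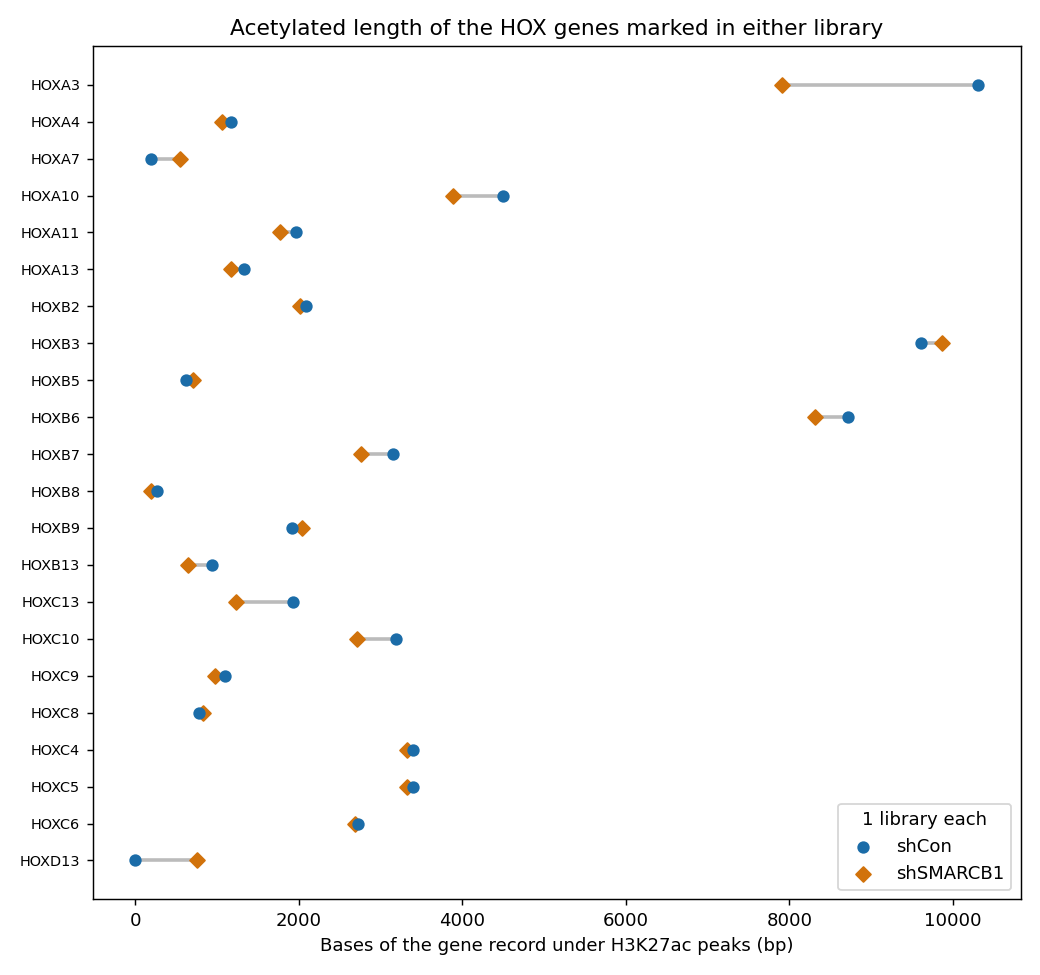
Bases of the gene record under H3K27ac peaks for the 22 HOX genes marked in either library, in shCon (blue circles) and shSMARCB1 (orange diamonds), 1 library each, joined by a grey line. HOXA3 has the longest line, from 10310 to 7913 bp, and for most other genes the symbols lie close together or overlap.

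Overlapping peaks of the H3K27ac libraries were then joined into regions, which avoids counting a shared region under several records. The cluster windows held 33 regions with H3K27ac in both libraries. Of these, 25 were shorter in shSMARCB1 (75.8%, against 70.0% over the genome) and 8 were longer. The median ratio was 0.910, and it was 0.909 over all 28701 shared regions. Shorter by 1.5-fold or more were 4 regions (12.1%, against 12.8%), and longer by that much were 0, against 4.77%.

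Of those 4 regions, the largest ratio was at chr7:27149157-27151703, between HOXA6 and HOXA7 and within the upstream part of the HOXA3 record. It had 2547 bp in shCon and 1197 bp in shSMARCB1, 2.13-fold less, and it held a SMARCB1 peak. The next lay between HOXB8 and HOXB9, outside any HOX record, with 1745 and 923 bp. Another lay within HOXA3 at chr7:27114824-27116419, with 1596 and 942 bp. At HOXB2 the region had 3941 bp in shCon and 2476 bp in shSMARCB1, while within the HOXB2 record itself the lengths differed by 66 bp.

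**Figure D4:**
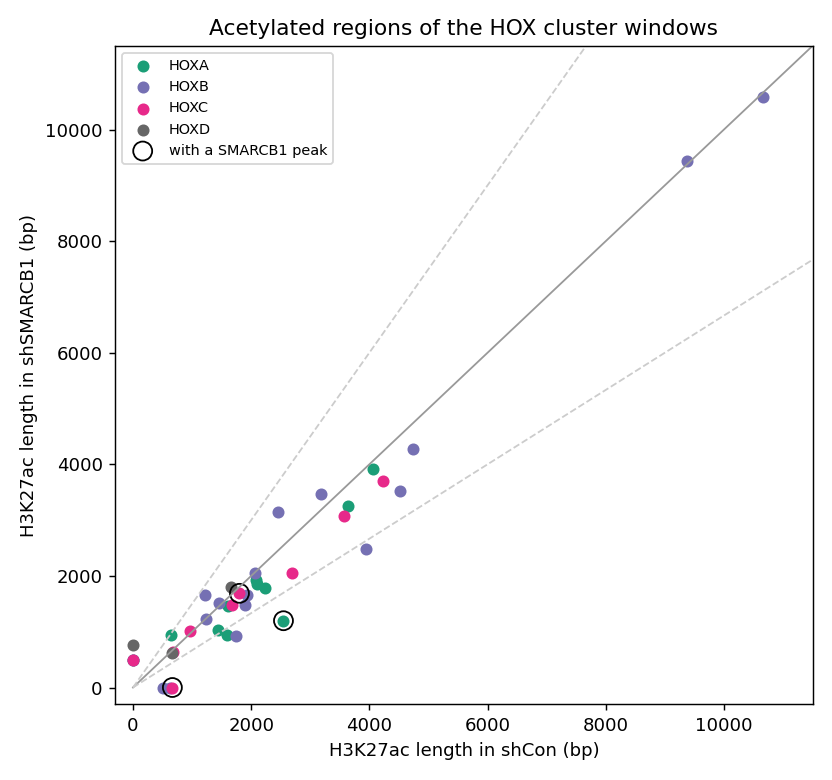
Length of H3K27ac in shCon (x axis, bp) against shSMARCB1 (y axis, bp) for each acetylated region of the 4 cluster windows, coloured by cluster; the solid line is equality, the dashed lines are 1.5-fold, and black rings mark regions with a SMARCB1 peak. The regions of 10670 and 9376 bp lie on the line of equality, and single-library regions lie on the axes.

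Peaks found in 1 library only were few and narrow. Of 36 shCon peaks 3 had no shSMARCB1 counterpart (8.33%, against 17.7% of shCon peaks over the genome), and of 38 shSMARCB1 peaks 4 had no shCon counterpart (10.5%, against 12.2%). These 7 peaks were 501 to 756 bp wide, where shared peaks had a median of 2072 bp in shCon and 1732 bp in shSMARCB1. Their median of 501 bp lies at the peak size of 500 bp set for the caller. The width of single-library peaks over the genome was not compared. The shCon-only peaks lay between HOXB1 and HOXB2 (501 bp), in HOXB3 (635 bp) and in HOXC10 (667 bp). With peaks within 1 kb merged, those between HOXB1 and HOXB2 and in HOXC10 join a neighbouring shared peak. The shSMARCB1-only peaks lay before HOXA2 outside any HOX record (501 bp), in the HOXB3 record (501 bp), in HOXC10 (501 bp) and in HOXD13 (756 bp). These 4 and the shCon-only HOXB3 peak stay separate on merging. The HOXB3 shSMARCB1-only peak lay 712 bp from the MIR10A hairpin, whose nearest shCon peak was 2551 bp away. All of the MIR10A, MIR10B, MIR196A1, MIR196A2, MIR196B and MIR615 hairpins lay outside the peaks of both libraries, and MIR615 was the nearest to one, at 233 bp in shCon and 268 bp in shSMARCB1.

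The third question was where SMARCB1 itself lay. The 4 windows held 4 SMARCB1 peaks, 2 in HOXA, 2 in HOXC and 0 in HOXB and HOXD, each 500 bp wide. They touched the records of HOXA3, HOXC9 and HOXC10, or 3 of 38 HOX genes (7.89%). Over all protein-coding genes 15.8% had a SMARCB1 peak in their record, and of genes in the HOX length range, which are not matched on length, 14.0%. The authors' value for these peaks, whose unit is not stated, was 8.45 to 11.6, in a list that runs from 7.39 to 1217.4 with a median of 11.6. Their ranks ran from 2125 to 4285 of 4453, so that 1 peak, in HOXC10, lay just inside the stronger part of the list and the other 3 in the weaker part.

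At HOXA3, the SMARCB1 peak at chr7:27150846-27151345 (value 8.45, classed by the authors as intron) covers the HOXA3 start site at 27150950 and the upstream bases printed above. All 500 bases of it were acetylated in both libraries, in the region that was 2.13-fold shorter in shSMARCB1. The other HOXA3 peak, at chr7:27111127-27111626 (value 8.98, intron), had no H3K27ac in either library, and the nearest lay 3198 bp away in shCon and 3623 bp away in shSMARCB1. At HOXC9, the peak at chr12:54000135-54000634 (value 11.1) was classed as promoter-TSS and was acetylated over all 500 bases in both libraries. The HOXC9 region had 1802 bp in shCon and 1688 bp in shSMARCB1.

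HOXC10 held the remaining SMARCB1 peak, at chr12:53988172-53988671 (value 11.6, intron). Of its 500 bases, 344 were under shCon H3K27ac and 0 under shSMARCB1 H3K27ac. The shCon peak there, chr12:53988328-53988994, was 1 of the 3 shCon-only peaks of the clusters. With peaks within 1 kb merged, it joins the shared HOXC10 peak that ends at chr12:53987669 and is then not shCon-only. In shSMARCB1 the nearest acetylated base was 533 bp from the SMARCB1 peak. A shSMARCB1 peak of 501 bp at chr12:53989204-53989704, also inside HOXC10, had no shCon counterpart. The 3 acetylated regions with SMARCB1 thus had ratios of shSMARCB1 to shCon of 0.470 (HOXA3) and 0.937 (HOXC9) and, in HOXC10, no overlapping shSMARCB1 peak, too few to compare with the other regions.

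Start sites were available for 20 of the 38 HOX genes, 27 starts in all. In shCon, 8 of these 20 genes had H3K27ac within 1 kb of a start, and in shSMARCB1 9, the added gene being HOXD13. The same share over all genes was not computed. Of HOXB only HOXB1 had a start, while of HOXD only HOXD9 lacked one, so the counts do not stand for all 38 genes. HOXC4 and HOXC5 were both counted, at the same start. Upstream windows under shCon H3K27ac and those without it had similar CG content, with medians of 19 pairs in 11 windows and 20 pairs in 15 windows. The 8 HOXD windows had a median of 22 pairs, from 4 at HOXD4 to 31 at HOXD1, and none was acetylated in either library. The motifs below were searched on both strands of the 27 upstream windows, of which HOXC4 and HOXC5 share 1. The HOX-PBX motif TGATTGAT was present at HOXA2 and HOXD11, and in 0.418% of all promoter windows. The HOX-PBX motif TGATTTAT was found in 0 of 27, and in 0.755% of all windows. The MEIS motif TGACAG was found at HOXA2 and HOXA4, and in 13.0% of all windows.

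HOX proteins bind DNA together with PBX, MEIS and PKNOX cofactors. Of 9 such genes, 8 were marked in both libraries and PKNOX2 in neither, where 13372 of all 19821 protein-coding genes were marked in both. All of the 9 records except PBX2 and MEIS3 are longer than the protein-coding median of 24482 bp, and no share for genes of like length was computed. PBX4 had 4965 bp in shCon and 1747 bp in shSMARCB1, past the 1.5-fold limit, and held a SMARCB1 peak. PKNOX1 had 4310 and 3630 bp. The median ratio over the 8 genes was 0.762, against 0.905 over all genes.

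Genes that act upstream of the HOX clusters were marked to different degrees. Over all protein-coding genes, 69.7% were marked in shCon and 2.27% in shCon only, 15.8% held a SMARCB1 peak, 12.5% of those marked in both were lower in shSMARCB1 by 1.5-fold, and the median ratio was 0.905. The MLL complex and its partners keep HOX genes active, and all 12 listed genes were marked in both libraries, with a median ratio of 0.881. All of these records except MEN1 are longer than the protein-coding median of 24482 bp, and no share for genes of like length was computed. MLLT3 had 11115 bp in shCon and 10701 bp in shSMARCB1, DOT1L had 8454 and 8999 bp, and AFF1, the only one of the 12 past 1.5-fold, had 6967 and 4459 bp. KMT2A (3027 and 2404 bp) and MEN1 (2579 and 2352 bp) held a SMARCB1 peak. Retinoic acid induces HOX genes, and of 15 genes of its synthesis, transport and receptors 7 were marked in both libraries, 1 in shCon only and 7 in neither, with a median ratio of 0.797. RARB, a receptor, had 13677 and 11715 bp, RARA, another, had 12211 and 11596 bp, and DHRS3, a retinaldehyde reductase, had 6752 and 2356 bp. RXRB, a partner of these receptors, had 2632 and 1611 bp, and with DHRS3 it was 1 of 2 list members past 1.5-fold. CRABP2, which carries retinoic acid in the cell, had 692 bp in shCon and 0 bp in shSMARCB1. SMARCB1 peaks lay in RARA, RXRB and CRABP2. Of the CDX and ParaHox genes, relatives of the HOX genes, CDX2 had 840 bp in shCon and 0 bp in shSMARCB1, and the other 5 had none in either.

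Of 27 non-HOX genes within or beside the clusters, 8 were marked in both libraries, 2 in shCon only and 17 in neither, with a median ratio of 1.02. These genes include non-coding ones and microRNAs, and the shares over protein-coding genes were 69.7% marked in shCon and 2.27% in shCon only, with a median ratio of 0.905. Most of the marked records covered only part of an acetylated region. Over the 33 shared regions of the cluster windows, taken whole, the median ratio was 0.91. HOTAIR, a long non-coding RNA of the HOXC cluster, was unmarked in both, and HOTTIP, at the HOXA13 end of HOXA, had 416 bp in shCon and 434 bp in shSMARCB1. HOXB-AS3 had 11595 and 11879 bp, HOXA-AS2 had 1978 and 1665 bp, and HOXA-AS3, which held the SMARCB1 peak at the HOXA3 start, had 2547 and 1197 bp. The shCon-only genes were HOXB-AS2 with 527 bp and HOXA11-AS with 91 bp. The 10 marked records lie in regions already described for HOX genes, so they add no separate peaks.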

How the data were processed

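H3K27ac and SMARCB1 peak positions in SK-Hep1 cells were used, 1 library per group, grouped by sample title. The input library was not analysed here. The submitters' processing notes name Bowtie2, HOMER and the build hg38, without versions. Per the file headers, HOMER found H3K27ac peaks in its histone style, with a peak size of 500 bp, a distance of 1000 bp and a 4-fold excess over input and local signal, and joined them into regions of variable length. Both lists used the input of shCon. For SMARCB1 peaks the calling settings and depth are not given in these sources. The deposited H3K27ac score is 1 for every peak and was not used. The authors' SMARCB1 value has no stated unit and served for ranking only.

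Peaks on autosomes and X were kept. Gene records, promoter windows and miRNAs came from RefSeq tables of GRCh38.p14, in which all 38 genes were found and 20 had promoter entries. Covered bases were counted with Python 3.11.15, at an overlap of at least 1 base, and the code was tested on 1000 simulated windows, of which 0 were wrong. Width is the only measure of size in these lists, so height was not compared. Positions are 1-based. Members, lists and tests were chosen with earlier results of these data known. Named were all HOX genes, and from the other lists single-library members, members with SMARCB1 and the 3 with the most shCon bases. The microRNAs, HOTAIR, HOTTIP, EVX1 and EVX2 were named outside that rule, after their values were seen. The values of 1 cofactor gene that the rule names are not reported here. Alternatives varied the gene window, the overlap, peak width, merging, the flank and the SMARCB1 value.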

Additional observations from a re-analysis of the deposited data

How the results depend on the processing

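Of the alternatives, the wider 50% of each list keeps peaks from 1707 bp in shCon and 1601 bp in shSMARCB1, which removes by construction all peaks of single libraries in the clusters. It left 0 bp in shCon and 1794 bp in shSMARCB1 along HOXD, 0 HOX genes marked in shSMARCB1 only, 2 lower by 1.5-fold (HOXC13 and HOXA3, with 8714 and 5774 bp) and 0 higher. The HOXD contrast came from the unequal limits. The shCon peak of 1651 bp that overlaps the one of 1794 bp fell below the shCon limit but was above the shSMARCB1 limit. With 1 kb added to each record, 0 HOX genes were marked in shSMARCB1 only, and HOXA9 was marked in both. Within 1 kb of a start site, where 20 genes could be counted and HOXB1 was the only HOXB gene, 8 were marked in shCon and 9 in shSMARCB1. Of these genes 0 were lower and 0 higher by 1.5-fold. With an overlap of at least 200 bases, 1 gene was marked in shCon only (HOXB8), 2 were marked in shSMARCB1 only (HOXA7 and HOXD13), and 0 were higher. Merging peaks within 1 kb joined the shCon-only peaks in HOXC10 and between HOXB1 and HOXB2 to neighbouring shared peaks. With SMARCB1 peaks at or above the median value, 1 peak and 1 gene with a peak were left. The other 67 recomputed values stayed within 1.5 times the reported ones, but with 1 kb added to each record the single lower gene was HOXA9 in place of HOXC13 and the single higher gene HOXD13 in place of HOXA7. The ratio of shSMARCB1 to shCon stayed below 1 for HOXA, HOXB and HOXC in every alternative that gave one. For HOXD, merging and the changed flanks returned the same 2318 and 3177 bp. HOXD had no peak in the flanks or near enough to another to be merged, so these settings could not change its ratio. The wider 50% gave no ratio for HOXD. Peaks of single libraries were narrow and the shSMARCB1 library had fewer tags and a shorter fragment length. The part of depth or fragment length in these peaks was not tested. The ratios were added after seeing the data. No paired analysis was possible because each group had 1 library and no test was made.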

Other observations

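Acetylation inside the cluster windows was not confined to HOX records. Between HOXB9 and HOXB13, 4 regions outside any HOX record spanned 67.4 kb, with 7211 bp in shCon and 7944 bp in shSMARCB1. They made up 14.0% and 16.6% of the acetylated length of the HOXB window. Between HOXB1 and HOXB2, 2 regions at chr17:48534295-48539976 had 5012 bp in shCon and 3514 bp in shSMARCB1. Between HOXA7 and HOXA9, a region of 1441 bp in shCon had 1038 bp in shSMARCB1, while the HOXA9 record itself was unmarked. The genes beyond HOXA13 and HOXD13, EVX1 and EVX2, homeobox genes related to the HOX family, were unmarked in both libraries.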
